A study of Mus musculus with 12 samples.

Results

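Nuclear receptor genes were compared between mouse fetal livers labelled as wild type and mouse fetal livers labelled as lacking macroH2A1 and macroH2A2, a pair of histone variants, by knockout of both genes. The members were 39 genes of the nuclear receptor family listed by symbol, and 37 of them had a probe set of their own among the 19935 genes measured. Nr1h2, which encodes the widely expressed liver X receptor, and Nr2e3, a receptor of the retina, were not analysed here because no probe set used here names them alone. Each of the 37 genes had 1 probe set, so its value was that of a single probe set on each array.

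Both groups were male fetuses of strain 129/S6 (taconic), taken at 18.5 days post coitum from wild-type recipient females that carried a mixture of wild-type and double-knockout embryos. The wild-type group and the group labelled macroH2A1 macroH2A2 double knockout had 6 arrays each, with replicate numbers from 1 to 6, and the RNA was total RNA of whole liver. Knockout of both genes was the only difference in the labels. The labels do not say which fetuses came from the same recipient, nor that an array is 1 animal, so p-values measure the spread between these samples, part of which may be technical. They also do not give how or in which line the genes were deleted. Whole liver holds hepatocytes, blood-forming cells, endothelium and connective tissue, and for every gene here fewer cells of a type and less RNA per cell cannot be told apart.

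Nuclear receptors are transcription factors that carry a DNA-binding domain and a pocket for a small fat-soluble ligand such as a steroid, retinoic acid, an oxysterol, a bile acid or a fatty acid. Many pair with a retinoid X receptor on repeated short DNA elements, and ligand exchanges corepressors for coactivators. In liver they set the levels of enzymes of bile acid, lipid, glucose and drug metabolism, several of which are switched on around birth. MacroH2A is a histone H2A variant with a large extra domain, found mostly in silent chromatin.

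The arrays lay on a similar scale, with medians of 7.55 to 7.61 (log2 value over all probe sets). Macroh2a1 differed by -0.77 (limma adjusted p = 3.5e-05) and Macroh2a2 by -0.09 (adjusted p = 0.99), but the position of their probes against the deletions is unknown here, so neither gene checks the labels. Hepatocyte markers such as Alb were high on every array, at 14.07 to 14.29. Wild-type replicate 6 stood apart in intestine markers, with a mean over 13 genes of 8.34 where the other 11 arrays had 7.21 to 7.53, and exocrine pancreas markers ranged from 7.34 to 10.64 over the arrays of wild type and from 7.39 to 10.63 over those of the double knockout. All 14 of these pancreas markers had higher means in the double knockout, with a median difference of 0.77, and 0 passed. Means were lower in the double knockout for 10 of 11 B lymphoid markers and 12 of 12 neutrophil markers, and 0 of them passed. At a limma unadjusted p under 0.05 there were 7 of the 11 and 7 of the 12, where 3.93% of all genes had this. The mean of the B lymphoid markers was 8.00 to 8.15 on wild-type arrays and 7.72 to 7.99 on double-knockout arrays, without overlap. The middle spread of all values was narrowest on double-knockout replicate 5, with an interquartile range of 2.77, and widest on wild-type replicate 5, with 3.02. Fits with the mean of exocrine pancreas, intestine or hepatocyte markers as a covariate, and after quantile normalization, are given below as alternatives. No fit used B lymphoid or neutrophil markers. The part of these differences in the results for receptors was not tested otherwise.

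No nuclear receptor gene passed the test between genotypes. Of 37 members, 0 passed at an adjusted p under 0.05 (limma, Benjamini-Hochberg over all genes), where 0.0150% of all genes did, and 2 had an unadjusted p under 0.05, where 3.93% of all genes did. In no member did the 6 arrays of one genotype lie wholly above those of the other, which 0.211% of all genes showed. Means were higher in the double knockout for 18 members and lower for 19, that is higher for 48.6% of members against 59.0% of all genes. The higher members numbered 13 after quantile normalization and 22 with the hepatocyte marker mean as a covariate. The members had a median log2 difference of -0.0010 against 0.013 over all genes. Differences ran from -0.26 for Nr1i3 to 0.12 for Nr0b1, and adjusted p from the limma fit lay between 0.992 and 0.998.

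The arrays were precise enough to bound most of these differences in array value. For 35 of the 37 members the 95% interval of the difference lay within 1.25-fold in either direction, as it did for 94.2% of all genes, and the 2 exceptions were Nr1i3 and Nr1i2. The median standard error was 0.05 on the log2 scale. At 1.5-fold only the interval of Nr1i3 reached past the limit. Only 19 members had a mean at or above the median gene level, and background was not measured here. For the dimmer members a narrow interval therefore bounds the array value and not the change in RNA.

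**Figure D1:**
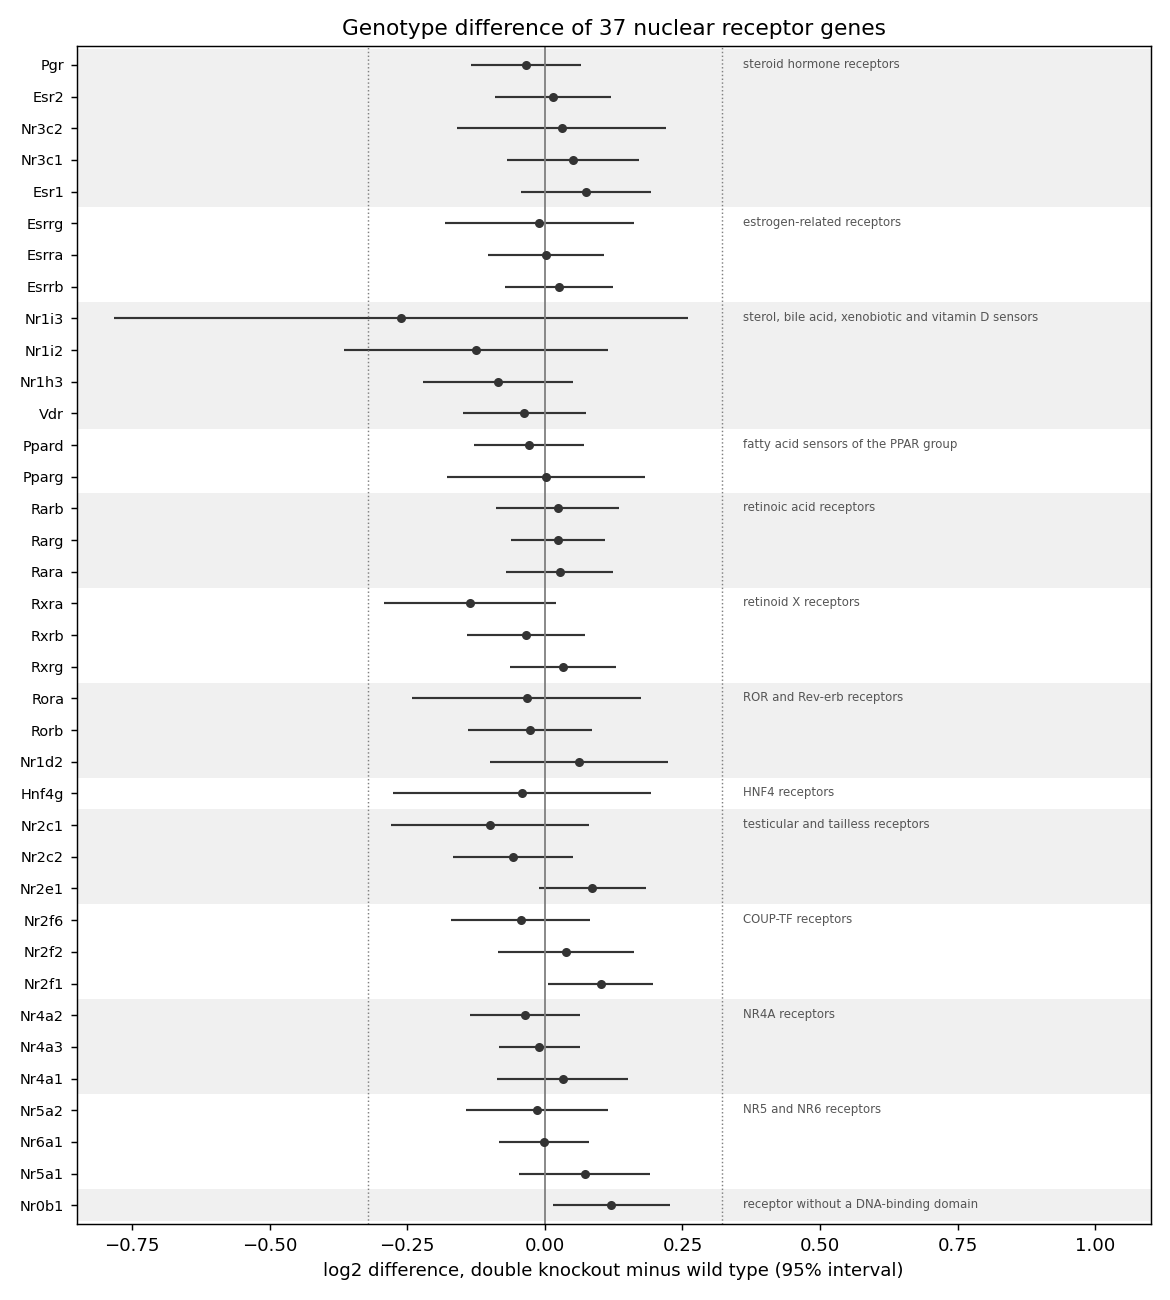
Log2 difference (double knockout minus wild type) of the 37 nuclear receptor genes measured, with 95% intervals from limma over 6 arrays per genotype, grouped by kind of receptor. Dotted lines mark 1.25-fold in either direction. All intervals except those of Nr0b1 and Nr2f1 include 0, and that of Nr1i3 is the widest, from -0.78 to 0.26.

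The sensors of sterols, bile acids, drugs and vitamin D had lower means in the double knockout in 4 of 4 measured members, none past the threshold. Nr1i3 encodes CAR, the constitutive androstane receptor, which turns on drug-metabolizing enzymes in liver. Its log2 value ran from 7.98 through a median of 8.67 to 8.97 in wild type, and from 7.53 through 8.51 to 9.02 in the double knockout. The groups overlapped over most of their range: double-knockout replicate 1 was the highest of the 12 arrays, and double-knockout replicates 5 and 3 were the lowest, followed by wild-type replicate 5. The genotype means were 8.62 ± 0.36 and 8.36 ± 0.62 (SD over 6 arrays, limma adjusted p = 0.99), a difference of -0.26 with a 95% interval from -0.78 to 0.26. Single arrays moved this difference. Leaving out double-knockout replicate 5 gave -0.09, leaving out its replicate 3 gave -0.14, and leaving out its replicate 1 or wild-type replicate 5 gave -0.39. With the mean of the hepatocyte markers as a covariate it was 0.015.

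Nr1i2 encodes PXR, the pregnane X receptor, the other main drug sensor of liver. It ran from 9.89 through 10.15 to 10.21 on wild-type arrays and from 9.53 through 10.05 to 10.34 in the double knockout. The array order was like that of Nr1i3, with the same highest array and the same lowest array. The difference was -0.12 (95% interval -0.36 to 0.12, limma adjusted p = 0.99), and -0.03 without double-knockout replicate 5 or -0.20 without double-knockout replicate 1. Nr1h3 encodes the liver X receptor LXRα, an oxysterol sensor. It ran from 9.50 through 9.63 to 9.76 on wild-type arrays and from 9.43 through 9.51 to 9.78 on double-knockout arrays, a difference of -0.08 (limma unadjusted p = 0.20). Of its double-knockout arrays 3 lay below every wild-type array and 1 above. Vdr, the vitamin D receptor, differed by -0.04, with values of 5.89 to 6.14 on wild-type and 5.76 to 5.99 on double-knockout arrays. Without wild-type replicate 1 its difference was 0.0004, so that the count of 4 lower sensors rested on that array.

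Nr1i3 was the member with the widest spread within genotypes, with a pooled SD of 0.51, and some other members correlated with it over arrays. Over the 12 arrays 5 of the 36 others had a positive and 1 a negative correlation with it (adjusted permutation p under 0.05). This family of 36 relations was examined after the values were seen. The share of all genes that correlate with Nr1i3 was not computed, so whether the count is particular to receptors is not known. Nr1i2 had a Pearson r of 0.948 (permutation p = 1e-05, the smallest that 100000 permutations can give, adjusted 0.00036) and a Spearman rho of 0.881 (adjusted permutation p = 0.012). Its r was 0.857 over wild-type arrays alone (exact permutation p = 0.033), 0.977 over those of the double knockout (exact permutation p = 0.0014) and 0.871 without double-knockout replicates 3 and 5. Rora followed with r = 0.884 (adjusted permutation p = 0.0063), then Pparg with 0.845 (0.0080), Rxra with 0.804 (0.010) and Esrrg with 0.740 (0.039). For these 4 genes the Spearman rho was between 0.490 and 0.685 and did not pass, with adjusted permutation p of 0.21 or more, and r without double-knockout replicates 3 and 5 fell to 0.678, 0.591, 0.649 and 0.312 in that order. Nr3c2 had r = -0.741 (adjusted permutation p = 0.039) and rho of -0.580, and its r was -0.495 without those arrays. Of the 36 relations, only that with Nr1i2 passed by Spearman rho as well.

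**Figure D2:**
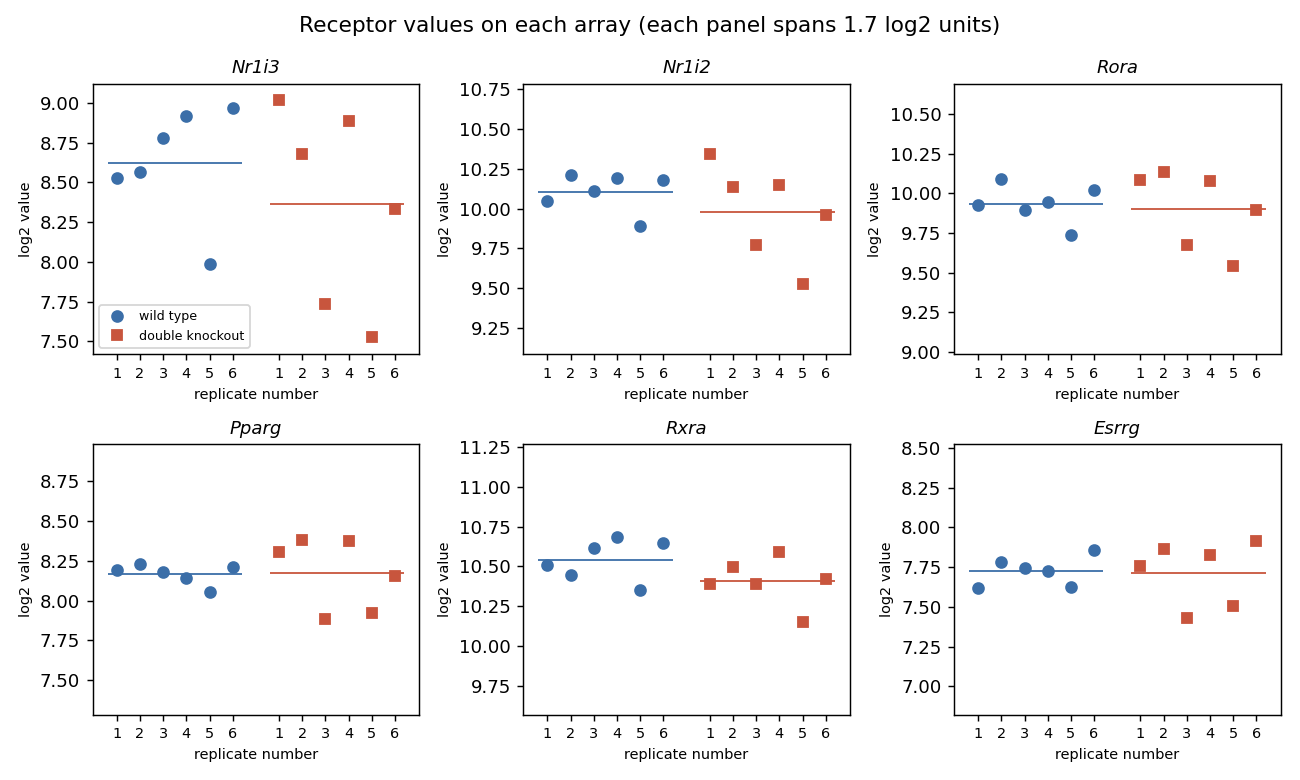
Log2 values of Nr1i3, Nr1i2, Rora, Pparg, Rxra and Esrrg on each of the 12 arrays, by genotype and replicate number, with horizontal lines at the genotype means. Each panel spans the same number of log2 units, so heights can be compared. Double-knockout replicates 3 and 5 hold the lowest or next-lowest values of Nr1i3, Nr1i2, Rora, Pparg and Esrrg, and double-knockout replicate 5 that of Rxra.

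The stretches of 250 bases upstream of the start are given for Nr1i3, for Nr1i2 and Rora, the members of highest Pearson r with it, and for Nr0b1, the member of smallest p. They are RefSeq promoter windows of build GRCm38.p6, where Nr1i3 lies at chr1:171213720-171213969 on the plus strand, Nr1i2 at chr16:38294825-38295074 on the minus strand, Rora at chr9:68653536-68653785 on the plus strand and Nr0b1 at chrX:86191525-86191774 on the plus strand. Capitals mark matches to 5 motifs searched on both strands. They included AGGTCA (the element bound by most nuclear receptors) and AGAACA (the element of some steroid receptors). The others were CACGTG (the E-box of clock factors), GTTAAT (part of the HNF1 element) and CAAAGTCCA (an HNF4 element).
Nr1i3: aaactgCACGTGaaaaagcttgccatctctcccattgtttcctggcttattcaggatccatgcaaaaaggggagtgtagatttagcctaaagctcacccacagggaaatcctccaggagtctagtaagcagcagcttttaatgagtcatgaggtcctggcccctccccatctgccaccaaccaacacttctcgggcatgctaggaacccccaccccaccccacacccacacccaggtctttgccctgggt
Nr1i2: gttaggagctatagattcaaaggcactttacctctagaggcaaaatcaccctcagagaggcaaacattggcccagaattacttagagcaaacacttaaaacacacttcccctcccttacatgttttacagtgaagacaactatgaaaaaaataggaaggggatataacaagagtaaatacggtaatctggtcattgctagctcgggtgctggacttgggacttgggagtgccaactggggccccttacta
Rora: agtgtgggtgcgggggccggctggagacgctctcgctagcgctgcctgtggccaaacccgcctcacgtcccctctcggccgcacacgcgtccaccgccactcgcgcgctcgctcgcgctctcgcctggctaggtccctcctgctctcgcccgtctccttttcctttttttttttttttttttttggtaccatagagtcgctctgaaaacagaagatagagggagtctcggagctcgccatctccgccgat
Nr0b1: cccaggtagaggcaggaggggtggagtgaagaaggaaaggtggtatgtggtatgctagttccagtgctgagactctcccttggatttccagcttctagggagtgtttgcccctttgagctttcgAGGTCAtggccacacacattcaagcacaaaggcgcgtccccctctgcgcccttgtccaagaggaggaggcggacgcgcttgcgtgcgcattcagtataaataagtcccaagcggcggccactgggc

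Nr1i3 had 1 match, CACGTG at -244 to -239 from the start, and Nr0b1 had 1 match, AGGTCA at -126 to -121, while the windows of Nr1i2 and Rora held none of the 5. Among the 53 windows of the 34 measured members with one, AGGTCA was present in 9, or 17.0%, against 14.0% of all 32851 windows. These 9 windows belonged to Nr0b1, Nr1d2, Nr5a2, Nr6a1, Pparg, Rarg, Rxra and Rxrg. AGAACA was in 5.7% of member windows and 16.1% of all, CACGTG in 5.7% and 6.0%, GTTAAT in 3.8% and 6.4%, and CAAAGTCCA in 0 of 53 and 0.4% of all. None of these motifs is contained in another, and a match does not show that a factor binds.

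The mean of listed genes on which CAR and PXR act followed Nr1i3 across arrays. Relations of the single genes to Nr1i3 were not tested. The mean of 17 such genes, most of them drug-metabolizing enzymes, correlated with Nr1i3 over the 12 arrays at r = 0.898 (permutation p = 0.00022, adjusted over 9 listed relations 0.0020) and rho = 0.867 (adjusted permutation p = 0.0045). Within wild type r was 0.636 (exact permutation p = 0.19) and within the double knockout 0.963 (exact permutation p = 0.0083). Without double-knockout replicates 3 and 5, the arrays farthest from the median of the target mean, r was 0.697 with an adjusted permutation p of 0.12, so the call rested on these arrays. The target mean was 7.76 and 7.78 on double-knockout replicates 3 and 5, the lowest of all arrays, and 8.20 on double-knockout replicate 1, the highest.

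Between genotypes 6 of the 17 targets had higher and 11 lower means, 0 passed, and the median difference was -0.02. It was 0.02 when wild-type replicate 6 and double-knockout replicate 5 were left out together, a pair chosen after seeing the data and used for each list below. In the target mean wild-type replicate 6, at 8.14, lay within the wild-type range of 8.01 to 8.15. The lowest array, double-knockout replicate 3 at 7.76, was kept. Those of smallest p were Cyp2c55 at 0.09, Aldh1a7 at -0.28 and Cyp3a25, a drug-metabolizing cytochrome P450, at -0.72 with SDs of 0.57 and 1.36. Cyp3a25 had 11.19 on double-knockout replicate 1 and 7.95 and 7.89 on its replicates 3 and 5. The target mean was not scaled, so a gene of such wide range weighs more in it. Cyp2b10, the classical CAR target, was at 5.82 to 6.16 on wild-type arrays and 5.93 to 6.29 on the others, so the groups overlapped. It did not follow Nr1i3 on the extreme arrays, with 6.02 on double-knockout replicate 1 and 6.12 and 6.06 on replicates 3 and 5. All values of Cyp2b10 lay under the median of every array, and background was not measured here. Cyp3a11, the classical PXR target, ran from 10.21 to 10.71 and from 10.11 to 11.07, and was highest on double-knockout replicate 1. The same arrays were low in other liver lists, where the mean of 18 PPAR targets was 9.22 on double-knockout replicate 5 and 9.38 on replicate 3 against 9.51 to 9.88 elsewhere, and that of 19 glucocorticoid receptor targets 9.87 and 10.03 against 10.13 to 10.50. The hepatocyte marker mean was also lowest on double-knockout replicate 5, at 13.58, and next lowest on replicate 3, at 13.61, against 13.63 to 13.72 elsewhere. Its genes did not all go this way. Hnf4a was low on replicates 5 and 3, at 11.77 and 11.85, but Alb was at 14.22 and 14.18 and Afp at 13.87 on both. Over all arrays Alb ran from 14.07 to 14.29 and Afp from 13.73 to 13.93. The part of the hepatocyte marker mean in these relations was not tested.

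**Figure D3:**
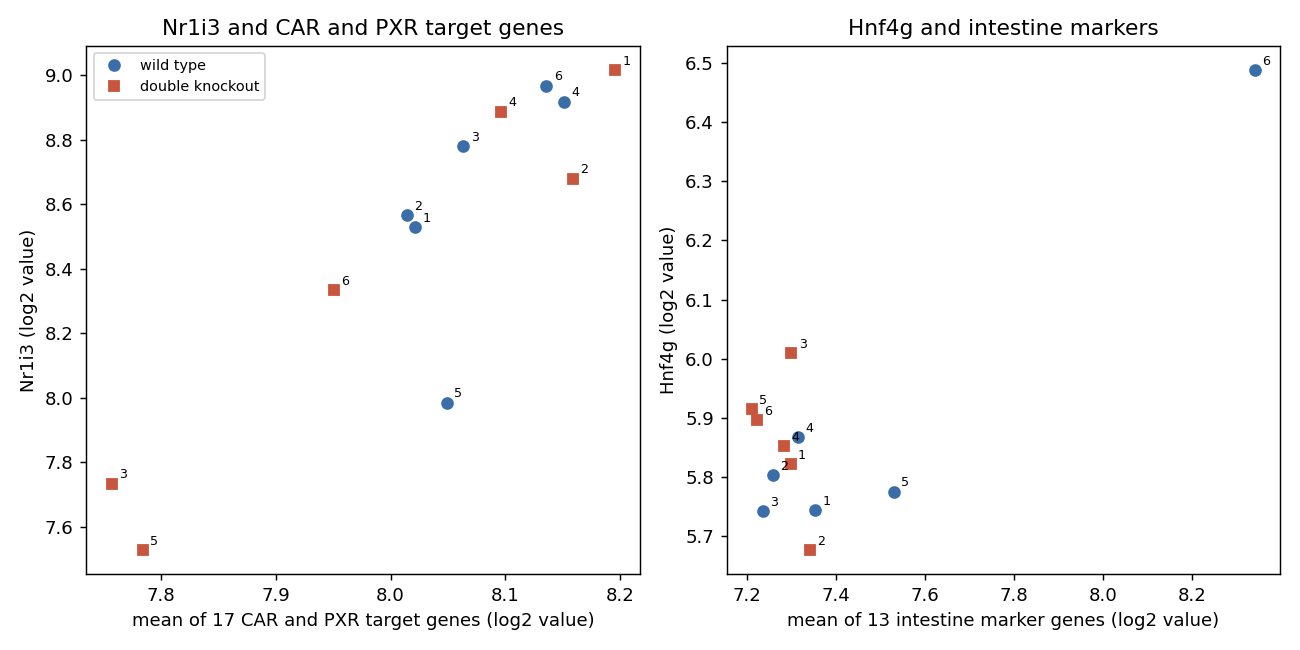
Left, log2 value of Nr1i3 against the mean log2 value of 17 CAR and PXR target genes, and right, log2 value of Hnf4g against the mean of 13 intestine markers, with 1 point per array labelled by replicate number. On the left double-knockout replicates 3 and 5 lie lowest on both axes, and on the right wild-type replicate 6 lies apart from the other 11 arrays at 8.34 and 6.49.

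Retinoid X receptors are the shared partners of most of these sensors. Rxra, the main form in hepatocytes, ran from 10.35 through 10.56 to 10.69 on wild-type arrays and from 10.15 through 10.41 to 10.59 in the double knockout. The lowest array was double-knockout replicate 5, and 3 wild-type arrays lay above every double-knockout array. Its difference was -0.14 (95% interval -0.29 to 0.02, limma unadjusted p = 0.084), or -0.08 without double-knockout replicate 5. Rxrb differed by -0.03 and Rxrg by 0.03.

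The fatty acid sensors differed little in mean. Pparg, best known from fat cells, averaged 8.17 ± 0.06 on wild-type arrays and 8.17 ± 0.22 on double-knockout arrays (SD over 6 arrays), a difference of 0.0018. Its double-knockout arrays spread on both sides of wild type, with 3 above every wild-type array and 2 below. Ppard differed by -0.03. Of 18 PPAR targets 5 had higher and 13 lower means with a median of -0.08, and 0 passed. That median was 0.02 when wild-type replicate 6 and double-knockout replicate 5, the pair chosen after seeing the data, were left out together. Among them Acot1, an acyl-CoA thioesterase, differed by -0.27, Cd36, a fatty acid uptake receptor, by 0.14 and Cpt1a, which brings fatty acids into mitochondria, by -0.17 (limma unadjusted p = 0.013, 0.016 and 0.038). Of 14 LXR targets 3 had higher and 11 lower means, and 0 passed. The median was -0.09, or -0.067 without wild-type replicate 6 and double-knockout replicate 5. Srebf1 differed by -0.20, Abcg1, a cholesterol exporter, by -0.13 and Fasn by -0.18. Nr1h3 and the mean of the 14 LXR targets correlated at r = 0.643 (permutation p = 0.025, adjusted 0.055), and at 0.355 without double-knockout replicates 3 and 5. The relation of Nr1h3 to the mean of 12 macrophage markers, cells in which LXRα also acts, had r = 0.586 (adjusted permutation p = 0.070).

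Nr0b1 and Nr2f1 were the members with unadjusted p under 0.05. Nr0b1 encodes DAX1, a repressor in adrenal and gonad that lacks the usual DNA-binding domain. It ran from 5.44 through 5.54 to 5.62 on wild-type arrays and from 5.52 through 5.66 to 5.80 in the double knockout. The groups overlapped, with 4 of 6 double-knockout arrays above every wild-type array. The difference was 0.12 with a 95% interval from 0.015 to 0.23 (limma unadjusted p = 0.028, adjusted p = 0.99). Nr2f1, the orphan receptor COUP-TF1, ran from 6.11 through 6.26 to 6.29 and from 6.23 through 6.33 to 6.42, with 5 of 6 double-knockout arrays above every wild-type array and a difference of 0.10 (95% interval 0.0066 to 0.20, limma unadjusted p = 0.038, adjusted p = 0.99). No member kept an unadjusted p under 0.05 after quantile normalization or median centring of the arrays, with hepatocyte markers as a covariate, or without double-knockout replicate 5. Both genes lay under the median gene level, and background was not measured here.

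**Figure D4:**
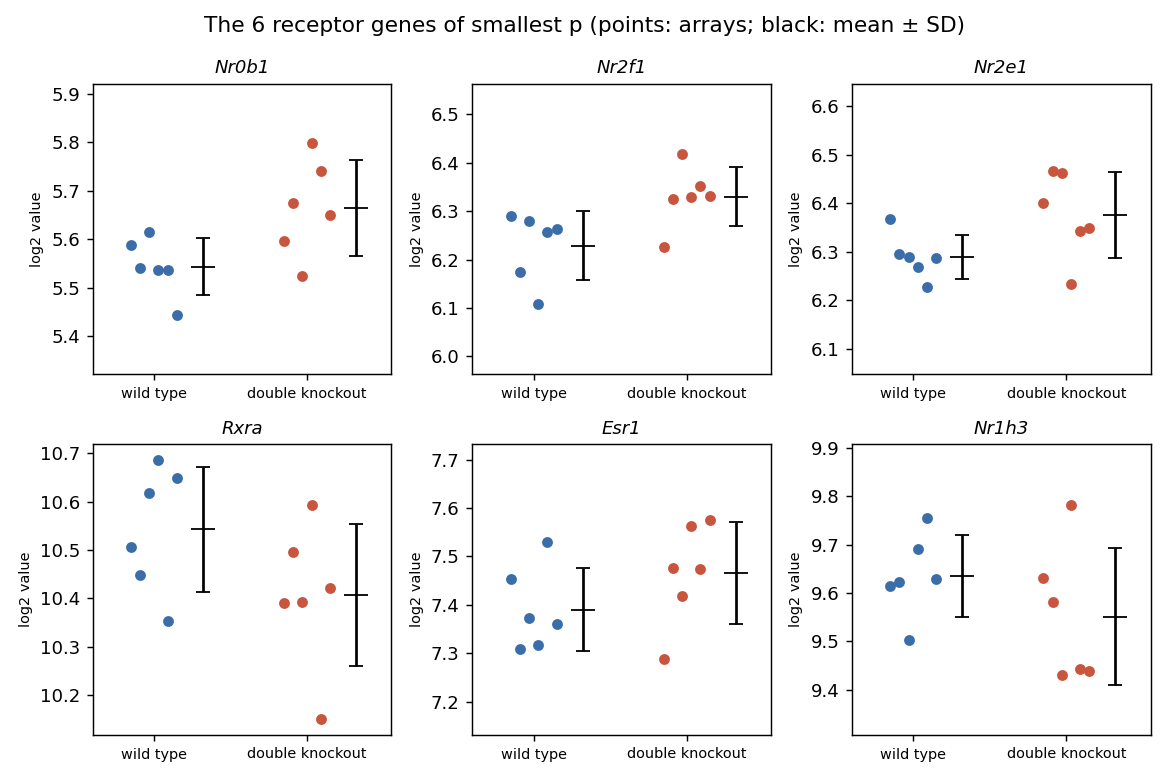
Log2 values of the 6 nuclear receptor genes of smallest p (Nr0b1, Nr2f1, Nr2e1, Rxra, Esr1 and Nr1h3), with 1 point per array and the mean ± SD of 6 arrays per genotype in black. In every panel the genotypes overlap, although 5 double-knockout arrays of Nr2f1 lie above all of wild type.

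Nr5a1, the steroidogenic factor that acts with Nr0b1 in the adrenal gland, ran from 7.63 through 7.70 to 7.88 on wild-type arrays and from 7.64 through 7.80 to 7.93 on double-knockout arrays, a difference of 0.07. It was highest on double-knockout replicate 2, at 7.93, and in wild type replicate 1 stood above the other 5 arrays. Markers of adrenal cortex had higher means in the double knockout in 8 of 8 genes, with list means of 7.24 ± 0.03 and 7.31 ± 0.05 (SD over 6 arrays), and 0 passed. Star, which moves cholesterol for steroid synthesis, was at 6.59 to 6.73 and 6.53 to 6.87, and Cyp11b1, of the last step to corticosterone, at 5.56 to 5.74 and 5.67 to 5.76. Both lay under the median of every array. The adrenal mean was highest, at 7.39, on double-knockout replicate 3, and its relation to Nr0b1 was not tested. Over the 12 arrays Nr5a1 and the adrenal mean had r = 0.645 (permutation p = 0.022, adjusted 0.055). Its neighbour Nr6a1, the germ cell nuclear factor, lies next to it on chromosome 2 with 0 coding genes between and differed by -0.0010.

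Nr5a2 encodes LRH-1, which supports bile acid synthesis in liver and enzyme production in exocrine pancreas. It ran from 9.40 through 9.67 to 9.69 on wild-type arrays and from 9.43 through 9.64 to 9.70 in the double knockout, with wild-type replicate 6 lowest. The difference was -0.014 (95% interval -0.14 to 0.11). Its relation to the mean of 14 exocrine pancreas markers was negative and did not pass, at r = -0.552 (permutation p = 0.061, adjusted 0.078). Of 11 genes on which LRH-1, RORs and Rev-erbs act in liver, 4 had higher and 7 lower means with a median of -0.03 and 0 passed. Cela1, in this list, is also among the exocrine pancreas markers. Leaving out wild-type replicate 6 and double-knockout replicate 5 together gave a median of 0.0054. Those of smallest p were E2f8 at -0.12, Cyp7a1, the rate-limiting enzyme of bile acid synthesis, at -0.08 and Cyp8b1 at -0.16.

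Hnf4g, the paralogue of the hepatocyte factor Hnf4a that is best known from gut, ran from 5.74 through 5.79 to 6.49 on wild-type arrays and from 5.68 through 5.87 to 6.01 in the double knockout. A single array set the wild-type maximum: wild-type replicate 6 had 6.49 and the next highest wild-type array 5.87. On that array intestine markers were also highest, with Fabp2 at 10.17, Apoa4 at 11.50, Vil1 at 8.25 and Cdh17 at 6.69, where the other 11 arrays were at or under 8.34, 9.25, 7.60 and 5.71. The difference of -0.04 turned to 0.08 without this array. Hnf4g and the intestine mean had r = 0.831 over 12 arrays (permutation p = 0.073) and rho = -0.098, and r was -0.384 without wild-type replicates 5 and 6, so the pooled r rested on those arrays.

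Steroid hormone receptors bind ligands made in adrenal, gonad and placenta. Nr3c1, the glucocorticoid receptor, through which the hormone surge before birth matures the liver, ran from 9.65 through 9.72 to 9.94 on wild-type arrays and from 9.68 through 9.83 to 9.91 in the double knockout. The ranges nearly coincided and the difference was 0.05 (95% interval -0.07 to 0.17). Of 19 glucocorticoid receptor targets 4 had higher and 15 lower means with a median of -0.05, or -0.0013 without wild-type replicate 6 and double-knockout replicate 5, and 0 passed. The 3 of smallest p were Mt2, a metallothionein, at 0.06, Lcn2 at -0.07 and G6pc, glucose-6-phosphatase, at -0.41. Lcn2 is also among the neutrophil markers above. The SD of G6pc was 0.20 among wild-type and 0.76 among double-knockout arrays. Nr3c1 and the target mean had r = 0.502 (permutation p = 0.099) over the 12 arrays. Nr3c2, the mineralocorticoid receptor, spread from 6.37 to 6.82 in the double knockout around a wild-type range of 6.42 to 6.76, and differed by 0.03. Esr1, the main estrogen receptor of liver, averaged 7.39 ± 0.09 and 7.47 ± 0.11 (SD over 6 arrays, limma unadjusted p = 0.19), with double-knockout replicate 1 the lowest and replicate 6 the highest of all arrays. Esr2 differed by 0.014 and Pgr, the progesterone receptor, by -0.03.

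Retinoic acid receptors had higher means in 3 of 3 members, with differences of 0.02 to 0.03, none past the threshold. Rara ran from 7.89 to 8.11 on wild-type arrays and 7.99 to 8.07 on double-knockout arrays, Rarb from 8.28 to 8.52 and 8.36 to 8.59, and Rarg from 7.19 to 7.30 and 7.16 to 7.35. Directions of these small differences turned under some alternatives. Of 15 genes of retinoid binding, synthesis, breakdown and response, 7 had higher and 8 lower means with a median of -0.0057 and 0 passed. The median was 0.0076 with the same pair of arrays (wild-type replicate 6 and double-knockout replicate 5) left out. Those of smallest p were Rdh5 at -0.10, Dhrs3, which limits retinoic acid synthesis, at -0.08 and Cyp26b1, which breaks retinoic acid down, at 0.05.

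Orphan receptors of energy metabolism and the clock had means close between genotypes. Rora, an activator of clock and lipid genes, ran from 9.74 through 9.94 to 10.09 on wild-type arrays and from 9.55 through 9.99 to 10.13 in the double knockout, where replicates 5 and 3 were below every wild-type array. Its difference was -0.03, and 0.04 without double-knockout replicate 5. Its relation to the mean of 11 hepatocyte markers had r = 0.596 (permutation p = 0.041, adjusted 0.070). Nr1d2, the repressor Rev-erb beta that opposes it, differed by 0.06, with 7.97 on double-knockout replicate 5 and 8.28 to 8.42 on the other double-knockout arrays. Its difference was 0.12 without double-knockout replicate 5 and 0.018 without wild-type replicate 5. Rorb, a receptor of brain and retina, differed by -0.03. Esrra, Esrrb and Esrrg, estrogen-related receptors that act on mitochondrial genes with no known natural hormone, differed by 0.0022, 0.03 and -0.010. Of 13 mitochondrial and metabolic genes on which they act, a list that also holds Esrra itself, 3 had higher and 10 lower means with a median of -0.03, or -0.019 without wild-type replicate 6 and double-knockout replicate 5, and 0 passed. Those of smallest p were Cs, citrate synthase, at -0.07, Mdh2 at -0.06 and Atp5b at -0.05.

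The remaining orphan receptors showed the same narrow differences. Nr2f2, or COUP-TF2, a receptor of mesenchyme and vein endothelium, ran from 8.67 through 8.82 to 8.94 on wild-type arrays and from 8.72 through 8.81 to 9.05 in the double knockout. It followed the mean of 12 stellate and mesenchymal markers at r = 0.739 (permutation p = 0.0049, adjusted 0.022), with rho = 0.678 (adjusted permutation p = 0.059), and r of 0.762 over wild-type and 0.703 over double-knockout arrays alone (exact permutation p = 0.074 and 0.11). Without double-knockout replicates 2 and 4, the arrays farthest from the median of that mean, r was 0.557 with an adjusted permutation p of 0.14, so that call rested on them. Nr2f6 differed by -0.04. Nr2c1 and Nr2c2, the testicular receptors TR2 and TR4 that act as repressors in red cell precursors, differed by -0.10 and -0.06, and Nr2c1 by -0.03 without double-knockout replicate 5, which had 9.01 where the other 11 arrays had 9.17 to 9.58. Nr2e1, the neural receptor tailless, ran from 6.23 to 6.37 and from 6.23 to 6.47, with a difference of 0.09 (limma unadjusted p = 0.078). Nr4a1, Nr4a2 and Nr4a3, immediate early genes whose receptors act without a ligand, differed by 0.03, -0.04 and -0.0099, and Nr4a3 stayed within 5.34 to 5.46 on all 12 arrays.

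The SD was larger in the double knockout for 24 of 37 members, or 64.9%, against 55.9% of all genes, with median SDs of 0.10 in the double knockout and 0.08 in wild type. Within the double knockout the lowest array was replicate 5 for 15 of 37 members, or 40.5%, against 24.1% of all genes. Within wild type the lowest array was replicate 5 for 14 members, or 37.8%, against 20.5% of all genes. Of the 37 members, 19 had a mean at or above the median gene level.

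A further list held nuclear receptors outside the 39. Of 8 measured, 2 had higher and 6 lower means and 0 passed, with a median of -0.08, or -0.0093 without wild-type replicate 6 and double-knockout replicate 5 together. Ppara, the fatty acid sensor that drives fat burning in liver, ran from 11.18 to 11.37 on wild-type arrays and from 10.89 to 11.36 in the double knockout, a difference of -0.155 (95% interval -0.32 to 0.01), and Nr1h5 and Thra differed by 0.09 and -0.07. Hnf4a, a master factor of hepatocytes, was lowest on double-knockout replicate 5, at 11.77, against a wild-type range of 11.96 to 12.09. Nr0b2, the repressor SHP of bile acid feedback, spread from 6.97 on double-knockout replicate 3 to 8.63 on double-knockout replicate 1, around a wild-type range of 7.49 to 8.34, and differed by -0.12. Nr1h4, the bile acid receptor FXR, differed by -0.08.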

How the data were processed

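RNA of fetal liver was measured on 12 Affymetrix arrays. The deposited table holds log2 values for each probe set, which the authors made with Affymetrix Expression Console (per the submitters' processing notes). The version and the method of background correction and summarisation are not stated. The deposited values run from 3.729 to 14.45, from which the log2 base was read. The platform's gene table pairs 21780 of 28815 probe sets with 1 gene, 1605 with several and lists none for 5430. Symbols were updated by gene ID through RefSeq (GRCm38.p6). The probe set with the highest mean stood for each of 19935 genes.

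The comparison was double knockout minus wild type in limma 3.58.1 (lmFit, eBayes, R 4.3.3), 2-sided, with p adjusted by Benjamini-Hochberg over all genes and called under 0.05. The fit was tested on simulated data for 19935 genes. Relations over arrays used 100000 permutations, or all 720 orders within a genotype. The number of arrays limits the precision. Values by array were given for members of unadjusted p under 0.05, the 6 of smallest p, the 3 of largest difference and the receptors of the 9 listed relations, and for some others chosen after their values were seen. For each target list the 3 genes of smallest p were named. The members and lists were chosen with earlier results of these data known. Alternatives were other scalings, a dim-gene filter, another prior, array weights, a replicate block, marker means as covariates, other probe set choices and leaving out arrays.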

Additional observations from a re-analysis of the deposited data

Results flagged for a closer look

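In 8 of the 74 groups of 6 arrays examined (37 members in 2 genotypes), 1 array lay far from the others by Dixon's test, which chance does in about 1 in 20 groups. The share over all genes was not computed, so whether these flags are particular to the members is not known. Hnf4g on wild-type replicate 6 was 6.49, with the next array at 5.87. Nr5a2 on the same array was lowest, at 9.40, with the next at 9.59. On wild-type replicate 1, Vdr was 6.14 and Nr5a1 7.88, where the next highest arrays had 5.93 and 7.705. In the double knockout, Vdr was lowest on replicate 4, at 5.76, below 5.91, and Rxrg highest on replicate 2, at 6.20, above 6.09. Nr1d2 was lowest on double-knockout replicate 5, at 7.97, with the next at 8.28, and Nr2c2 on double-knockout replicate 6, at 9.62, with the next at 9.80.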

How the results depend on the processing

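The number of nuclear receptor genes past the threshold was 0 under each of the 24 alternatives, with limma adjusted p of 0.803 or more. The 3 calls over all genes became 5 after quantile normalization or median centring and ranged from 2 to 6 when 1 array was left out, with 6 reached without double-knockout replicate 2. Members with a higher mean numbered 7 of 19 when the genes were limited to those at or above the median level. Members at an unadjusted p under 0.05 numbered 0 after quantile normalization, median centring, that filter or the hepatocyte covariate, 1 with the intestine covariate, 0 to 3 when 1 array was left out, and 0 without wild-type replicate 6 and double-knockout replicate 5 together, an alternative chosen after seeing the data. The correlation of Hnf4g with intestine markers became -0.384 without the 2 arrays farthest from the median of the markers, that of Nr2f2 with mesenchymal markers 0.557 and that of Nr1i3 with CAR and PXR targets 0.697, as the report gives. Of the 37 members, 17 kept the sign of their difference under each alternative in which they were tested and 20 did not. Members under the median level were not tested under the filter on dim genes. The probe set choices, the other prior, the replicate block and that filter left each difference unchanged and could not turn a sign. Quantile normalization turned the difference of Nr3c2 to -0.0014, Esr2 to -0.0183, Esrrb to -0.0108, Pparg to -0.0077, Rarg to -0.0020, Rxrg to -0.0043 and Nr6a1 to 0.0003. The hepatocyte covariate turned the difference of Nr3c2 to -0.0491, Esr2 to -0.0282, Esrrg to 0.0509, Nr1i3 to 0.0149, Ppard to 0.0083, Rora to 0.0484, Hnf4g to 0.0308 and Nr6a1 to 0.0029. The intestine covariate turned the difference of Esr2 to -0.0034, Esrra to -0.0027, Esrrg to 0.0179, Ppard to 0.0057, Rara to -0.0089, Rarb to -0.0054, Hnf4g to 0.1035 and Nr6a1 to 0.0203. Median centring turned the difference of Esrra to -0.0096 and Pparg to -0.0100. The pancreas covariate turned the difference of Pparg to -0.0072 and Nr5a2 to 0.0165. Array weights turned the difference of Hnf4g to 0.0204 and Nr6a1 to 0.0106. When 1 array or that pair was left out, differences that changed sign ranged for Nr3c2 from -0.0427 to 0.0732, Esr2 from -0.0128 to 0.0429, Esrra from -0.0223 to 0.0355, Esrrg from -0.0500 to 0.0571, Vdr from -0.0530 to 0.0004, Ppard from -0.0503 to 0.0157, Pparg from -0.0402 to 0.0600, Rarb from -0.0056 to 0.0420, Rora from -0.0798 to 0.0549, Hnf4g from -0.0736 to 0.0755, Nr2f2 from -0.0011 to 0.0681, Nr4a1 from -0.0018 to 0.0680, Nr4a3 from -0.0200 to 0.0047, Nr5a2 from -0.0571 to 0.0193 and Nr6a1 from -0.0159 to 0.0150. The cause of these changes was not tested. The fit with the replicate block gave 2 calls over all genes, 0 called members, 18 members with a higher mean and 2 at an unadjusted p under 0.05. Deviations of arrays with the same number correlated at 0.205, -0.182, 0.221, 0.329, 0.166 and 0.49 for replicates 1 to 6. As 1 of these lay under 0.1 and the labels name no shared source, the numbers were not used as pairs, although 4 of 6 wild-type arrays correlated best with their own number, a hint from the data and not from the design.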

Other observations

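Genes of the coregulators that receptors recruit formed a pair of further lists. Of 13 coactivator genes 4 had higher and 9 lower means with a median of -0.02, or -0.0016 without wild-type replicate 6 and double-knockout replicate 5, and 0 passed. Ncoa4, which also serves iron release from ferritin, differed by 0.09 (limma unadjusted p = 0.032), Ncoa3 by -0.07 and Carm1, an arginine methyltransferase, by -0.09. Of 7 corepressor genes 4 had higher and 3 lower means with a median of 0.0002, and 0 passed. That median was -0.045 with those arrays left out. Those of smallest p were Tbl1x at -0.06, Nrip1 at -0.04 and Hdac3, the histone deacetylase of the corepressor complex, at 0.03. Rarb and Nr1d2, which lie close together on chromosome 14 with 2 coding genes between, differed by 0.02 and 0.06.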
